A study of Drosophila melanogaster with 12 samples.

Results

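The genes described here move eye pigment precursors into pigment granules or make the pigments: Pu, pr, se and ry of pteridine synthesis, cn of ommochrome synthesis, and the transporter genes st and bw. They were chosen by symbol in the platform annotation of the array, from 10 genes sought. Of these, 7 had at least 1 probe set, 8 probe sets in all of the 13966 tested, and bw was the gene with more than 1. The genes w, v and Hn had no probe set under their symbol in that annotation and are not analysed under it. Where a gene had several probe sets, the one of highest mean signal leads.

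All samples were heads of adult y w; tim01 flies. They carry mutations of yellow and of white, and an allele of timeless, a gene of the circadian feedback loop, without function. After 3 days in cycles of 12 h light and 12 h darkness, flies were frozen every 4 h through 1 more such day (LD) and through the following day in constant darkness (DD). Each of the 12 arrays held the RNA of pooled heads from 1 time point: ZT2, ZT6 and ZT10 in the LD light phase, ZT14, ZT18 and ZT22 in the LD dark phase, CT2, CT6 and CT10 in the DD subjective day, and CT14, CT18 and CT22 in the DD subjective night. All groups share the 3 mutations, so no comparison bears on them, and flies with functional white or timeless were not analysed here. The labels used here give neither the age nor the sex of the flies. The LD arrays are also the arrays of the earlier day, so regime and day cannot be told apart.

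The compound eye of Drosophila is coloured by red pteridines (drosopterins) and brown ommochromes, which lie in pigment granules and screen the photoreceptors from stray light. Pteridines are made from GTP by the products of Pu (GTP cyclohydrolase), pr (6-pyruvoyltetrahydropterin synthase) and se (an omega-class glutathione transferase that makes a drosopterin precursor), and ry encodes xanthine dehydrogenase, which makes isoxanthopterin. Ommochromes are made from tryptophan, with cn encoding kynurenine 3-monooxygenase. The half-transporter encoded by w pairs with that of bw to carry pteridine precursors and with that of st to carry ommochrome precursors, so eyes without white function store neither pigment. The first enzymes of the pteridine route also supply tetrahydrobiopterin, the cofactor of the hydroxylases that act on phenylalanine, tyrosine and tryptophan.

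Values are log2 signals. The median signal of an array was 4.10 to 4.14, and any pair of arrays correlated at 0.988 to 0.997 over the probe sets. The 8 eye genes measured as markers were bright, with mean levels from 8.53 for inaD to 11.94 for Arr2. Of the 4 neuronal markers measured, nSyb (4.84) and brp (4.45) lay above the median of all probe sets (4.12) and elav (3.73) and para (2.82) below it. Transcripts of 15 gut and 14 male reproductive tract genes stood high on the ZT2, ZT18 and CT2 arrays: the gut list read 0.87, 0.09 and 0.52 above its mean over all arrays there, and -0.21 to -0.10 on the other arrays, and the male list 0.86, 0.35 and 0.48 against -0.25 to -0.07. The list of 6 marker genes of Malpighian tubules, another site of pigment gene expression, did not stand out in this way. It read 0.06, -0.02 and -0.01 on these arrays and -0.08 to 0.05 on the others. Of the 9 tubule genes sought, these 6 were measured, and 3 of them lay above the array median. Whether these arrays held a small share of tubule RNA was therefore not tested by this list. No time point was measured again, so the errors and p-values rest on how far the hours of a phase lie apart, technical differences included. In the group fits this spread was pooled over the 4 groups and drawn towards that of all probe sets of like level. In whole heads, fewer cells of a type and less transcript per cell cannot be told apart.

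The transcript of pr was the member with a separation of day and night. It read 7.22, 7.29 and 7.22 at ZT2, ZT6 and ZT10 and 7.53, 7.54 and 7.57 at ZT14, ZT18 and ZT22. In constant darkness it read 7.35, 7.45 and 7.16 at CT2, CT6 and CT10, then 7.62, 7.61 and 7.54 at CT14, CT18 and CT22. All 6 night arrays lay above all 6 day arrays, on both days, which was so in the same direction for 0.258% of all probe sets. The group means were 7.24 ± 0.04 in the LD light phase, 7.32 ± 0.15 in the DD subjective day, 7.54 ± 0.02 in the LD dark phase and 7.59 ± 0.04 in the DD subjective night (SD, n = 3 arrays each). In that order the neighbours LD light phase and DD subjective day overlapped, as did LD dark phase and DD subjective night.

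The transcript of Pu, upstream of pr in the same route, showed no such step. It read 6.95, 7.20 and 7.01 in the LD light phase and 7.01, 7.24 and 6.97 in the LD dark phase, so the phases overlapped. In DD it read 6.56, 7.20 and 6.81 in the subjective day and 7.29, 7.03 and 7.07 in the subjective night. The lowest value of all was that of CT2, which is among the arrays with high gut and male tract signal. Day and night overlapped in DD as well, because CT6 lay above CT18 and CT22.

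The transcript of se was higher in DD than in LD at each hour. Over the LD day it went through 5.95, 6.13, 6.15, 6.30, 6.14 and 6.35, in order of hour. Over the DD day it went through 6.14, 6.54, 6.56, 6.42, 6.49 and 6.69. The DD value exceeded the LD value of the same clock hour by 0.12 at hour 14 to 0.41 at hours 6 and 10. The array lowest in each day was that of hour 2. The transcript of ry ran from 5.46 at ZT2 to 5.98 at CT14, with group means of 5.66 ± 0.19 (LD light phase), 5.71 ± 0.06 (LD dark phase), 5.75 ± 0.07 (DD subjective day) and 5.76 ± 0.21 (DD subjective night; SD, n = 3 arrays each). All 4 groups of ry overlapped.

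**Figure D1:**
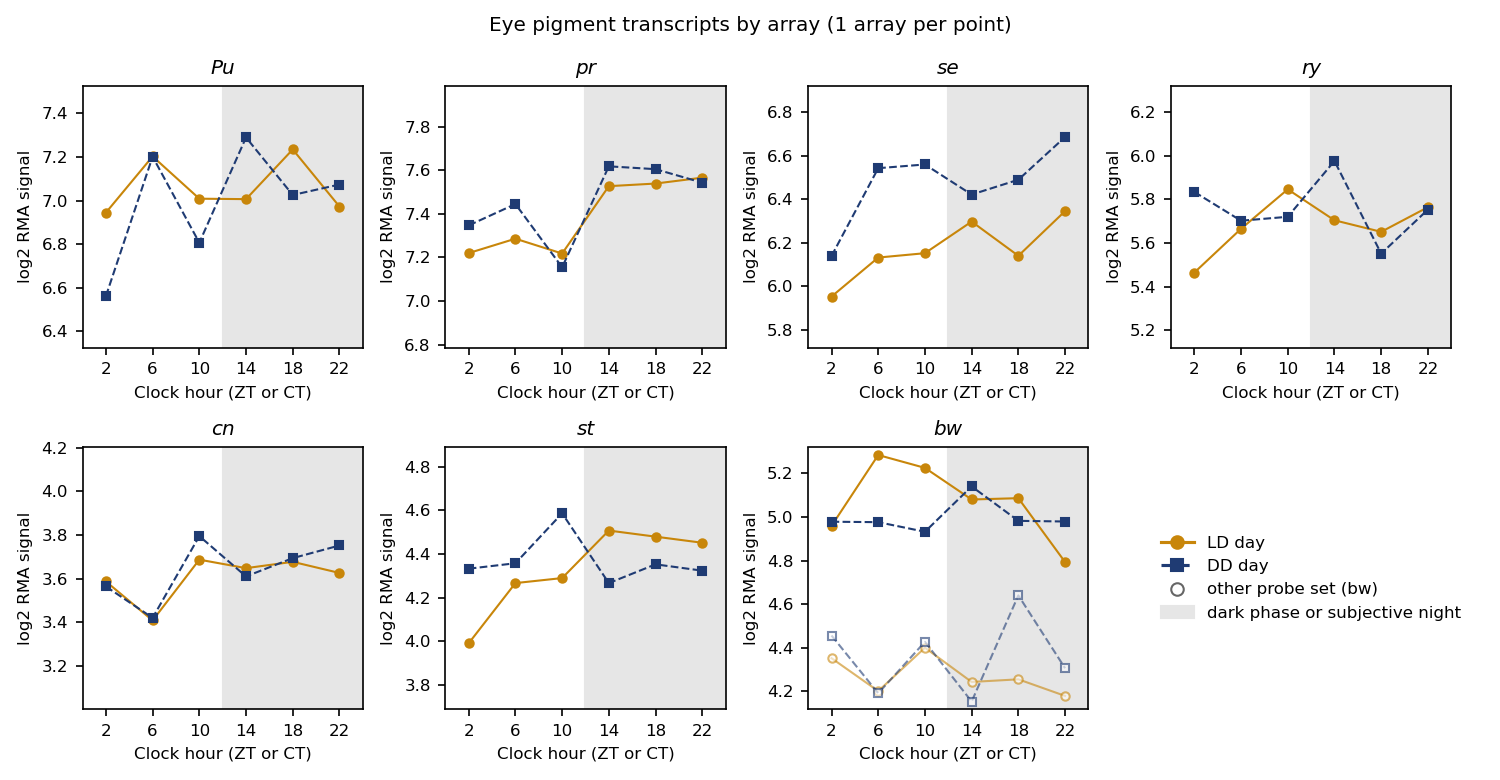
Log2 RMA signal of each of the 7 genes on each array (vertical axis, each panel spanning 1.2 log2 units) against clock hour (horizontal axis), LD in circles and DD in squares, with the dark phase or subjective night shaded. For pr all night values (7.53 to 7.62) lie above all day values (7.16 to 7.45), and for se each DD value lies above the LD value of the same hour.

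The ommochrome enzyme gene cn was dim, below the array medians, and lay between 3.41 and 3.80. Its lowest values in each day were those of hour 6, 3.41 at ZT6 and 3.42 at CT6, and its highest was that of CT10. RMA, the summary method used for these arrays, narrows differences at low signal.

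Of the transporter genes, the transcript of st, the ommochrome transporter subunit, read 3.99, 4.27 and 4.29 in the light phase and 4.51, 4.48 and 4.45 in the dark phase, with no overlap. In DD it read 4.33, 4.36 and 4.59 in the subjective day and 4.27, 4.35 and 4.32 in the subjective night, and the groups overlapped. Its ZT2 value was the lowest and its CT10 value the highest of the 12.

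For bw, the pteridine transporter subunit, the leading probe set read 4.96, 5.28 and 5.23 in the light phase and 5.08, 5.09 and 4.79 in the dark phase. Light and dark phase overlapped. In DD it read 4.98, 4.98 and 4.93 in the subjective day and 5.14, 4.98 and 4.98 in the subjective night, where the ranges met without overlap at the third decimal, with the day arrays lower, as for 4.82% of all probe sets. The other bw probe set ran from 4.15 to 4.64 and was highest at CT18. The probe sets did not share a highest or a lowest array, and the mean DD minus LD difference was -0.07 for the leading and 0.09 for the other.

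Day and night hours were compared over both regimes, as the mean of the contrasts within LD and within DD, which asks whether a transcript differs by time of day in flies without a working timeless gene. One of the 7 members, pr, passed with limma at an adjusted p under 0.05, where 0.279% of all probe sets were called in either direction. Its level was 1.22-fold lower by day, at 7.28 ± 0.10 against 7.57 ± 0.04 (SD, n = 6 arrays each), a log2 difference of -0.29 ± 0.05 (SE, limma, adjusted p = 0.0268). The members had a median difference of -0.09, with 6 of 7 negative, where the median of all probe sets was 0.00 and 49.4% were negative. The 6 members that did not pass had differences from -0.15 (se and Pu) to 0.05 (bw). Without CT2 the differences of se and Pu were -0.08 and -0.07, and without ZT2, ZT18 and CT2 that of Pu was -0.0048. Over single arrays left out, that of Pu ran from -0.23 to -0.07, that of se from -0.19 to -0.08 and that of bw from 0.00067 (without ZT22) to 0.10 (without ZT2).

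The size of the pr difference held from -0.32 to -0.25 when any single array was left out, but its call did not. It was kept without ZT2 (adjusted p = 0.0342) and without CT6 (adjusted p = 0.0094) and lost without any other single array, with adjusted p from 0.0559 without CT10 to 0.0859 without CT18. Without ZT2, ZT18 and CT2 together the difference was -0.29 (limma, adjusted p = 0.102). The mean of the fat body list moved with it. Over its 6 markers, from Obp99b to the yolk protein genes Yp1, Yp2 and Yp3, the mean level ran from 10.60 to 10.94 by day and from 10.92 to 11.19 by night. Day and night values of the single fat body genes are not given here, so which of them moved cannot be read from this mean. The mean level of the 8 eye markers ran from 9.74 to 9.91 by day and from 9.75 to 9.91 by night, although 1 of them, the corneal lens gene retinin, had a difference between day and night of -0.67. With the fat body list as a covariate the pr difference was -0.27 (limma, adjusted p = 0.711). Since the list itself nearly separated day from night, this fit cannot tell it apart from time of day. The part of fat body transcripts in the pr difference was not tested further. With a measure of RNA quality, the difference between the 3′ and 5′ control probe sets of eIF-4a, as a covariate the pr difference was -0.26 (adjusted p = 0.115).

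Within LD the light phase was compared with the dark phase, and 0 of 7 members passed with limma (0.129% of all probe sets were called). At an unadjusted p under 0.05 there were 2, both lower in the light, where 2.79% of all probe sets were. They were pr (-0.30 ± 0.07 SE, adjusted p = 0.208) and st (-0.30 ± 0.09, adjusted p = 0.398). For each of them the 3 light arrays lay below the 3 dark arrays, as for 6.56% of all probe sets. Without ZT2 the st difference was -0.20 (adjusted p = 0.685). The 95% intervals were -0.46 to -0.14 for pr and -0.48 to -0.11 for st, and for bw, at 0.17 ± 0.10, -0.03 to 0.37. The bw difference was 0.07 without ZT22 (adjusted p = 0.994), 0.27 without ZT2 and 0.32 without ZT2, ZT18 and CT2 (adjusted p = 0.552). These are values of the leading bw probe set, and the other was at 0.09 ± 0.11 (SE, limma, adjusted p = 0.962).

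Within DD, subjective day against subjective night, 0 of 7 members passed with limma (0.0644% of all probe sets were called), and 2 were lower by day at an unadjusted p under 0.05, where 2.59% of all probe sets were. They were the successive pteridine enzyme genes pr and Pu, at the same difference of -0.27 (SE 0.07, adjusted p = 0.536, for pr, and SE 0.13, adjusted p = 0.829, for Pu). For pr the 3 day arrays lay below the 3 night arrays, as for 4.82% of all probe sets. The pr difference within DD ran from -0.34 without CT6 to -0.19 without CT10 (limma, adjusted p = 0.148 and 0.927). The Pu difference rested on CT2: it was -0.13 without that array (adjusted p = 0.99) and -0.45 without CT6 (adjusted p = 0.194).

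Whether the day-night difference itself differed between LD and DD was tested by the difference of both contrasts, and 0 of 7 members passed with limma, as did 0 of all probe sets (0% called, and 5.21% with an unadjusted p under 0.05). For pr it was -0.03 ± 0.11 (SE, adjusted p = 0.998, 95% interval -0.25 to 0.19). The furthest from 0 was st, the 1 member with an unadjusted p under 0.05, at -0.41 ± 0.13 (SE, adjusted p = 0.924, 95% interval -0.67 to -0.14), since its day-night difference was -0.30 in LD and 0.11 in DD. For bw it was 0.24 ± 0.13 (adjusted p = 0.935), 0.14 without ZT22 and 0.40 without ZT2, ZT18 and CT2 (limma, adjusted p = 0.971 and 1). These are values of the leading bw probe set, and the other was at 0.10 ± 0.15 (SE, limma, adjusted p = 0.985).

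**Figure D2:**
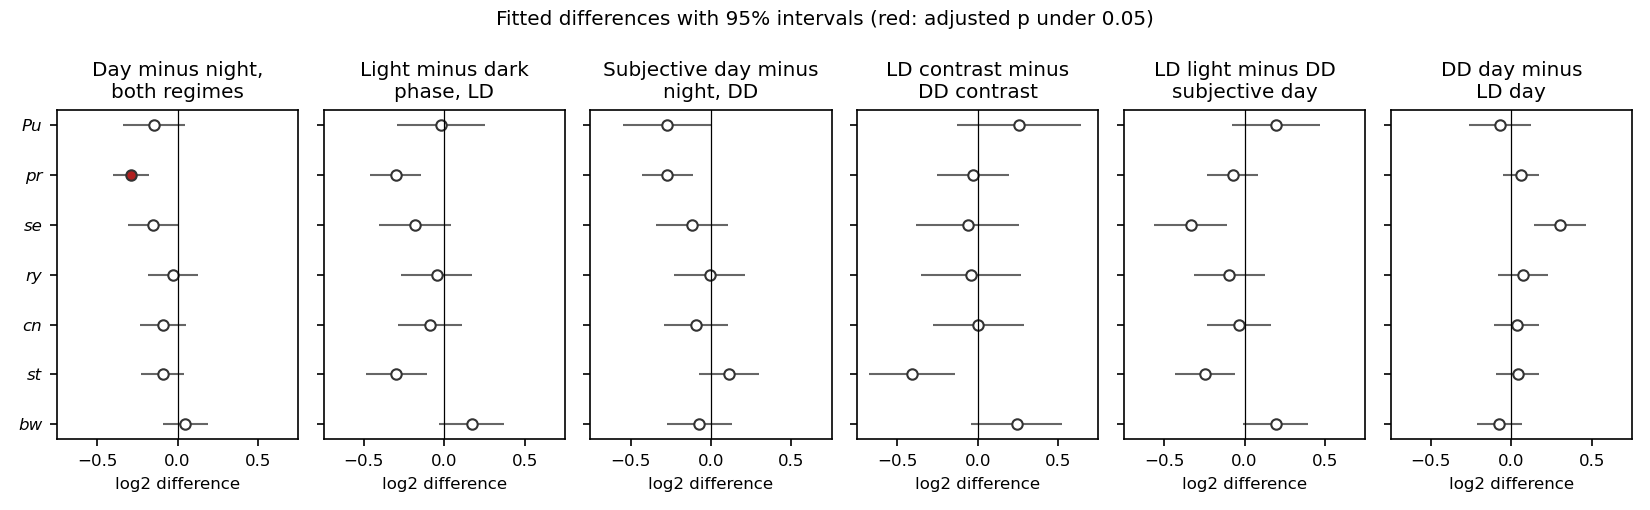
Fitted log2 differences of the 7 genes (points) with 95% intervals (bars) in 6 comparisons, each named above its panel, with the first group of each title minus the second. The interval of pr lies below 0 for day against night in both regimes, and that of se above 0 for the DD day against the LD day.

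When 1 cosine of 24 h was fitted to both days, 0 of 7 members passed with limma's F test (0.0358% of all probe sets were called). For pr the fitted amplitude, from mean to peak, was 0.18 on the log2 scale with its peak at hour 18.5 (adjusted p = 0.534). The median amplitude of all probe sets was 0.05. With a cosine for each day, the pr peak was at hour 18.2 in LD and 18.8 in DD, and the amplitudes were 0.19 and 0.17. The other members had amplitudes between 0.06 and 0.10 in the common fit, and st had peaks at hour 16.1 in LD and 9.0 in DD.

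The DD day was compared with the LD day over all hours, and 0 of 7 members passed with limma (0.0215% of all probe sets were called). The nearest was se, 1.23-fold higher in DD at 6.47 ± 0.19 against 6.17 ± 0.14 (SD, n = 6 arrays each), a log2 difference of 0.30 ± 0.08 (SE, adjusted p = 0.135, 95% interval 0.14 to 0.46). It was the 1 member with an unadjusted p under 0.05, which 5.46% of all probe sets had in that direction, and DD was above LD at all 6 hours, as for 3.77% of all probe sets. The leading probe sets of the other members had differences from -0.07 to 0.07. At the light hours alone, LD against DD, 0 of 7 members passed (0.186% of all probe sets were called): se was at -0.33 ± 0.11 (adjusted p = 0.239) and st at -0.24 ± 0.09 (adjusted p = 0.296), the 2 members with an unadjusted p under 0.05, where 5.68% of all probe sets were lower in the light at that level. For st the 3 LD light arrays lay below the 3 DD arrays, as for 9.09% of all probe sets, and for se the ranges overlapped by a little, since CT2 lay below ZT10. Without ZT2 the st difference was -0.15 (adjusted p = 0.597).

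A measure of RNA quality moved with the day of sampling and, less, with day and night. The 3′ control probe set of eIF-4a exceeded the 5′ one by 2.89 to 3.32 in LD and by 2.56 to 3.04 in DD, and was lower in DD at all 6 hours. It averaged 2.89 over the day arrays and 3.06 over the night arrays, with overlap. With this measure as a covariate the DD minus LD difference of se was 0.02 (limma, adjusted p = 0.992), that of LD light phase against DD subjective day was -0.03 for se (adjusted p = 0.988), and for st -0.02 (adjusted p = 0.994). Because the measure was itself lower in DD at all 6 hours, these fits cannot separate it from regime or day. Its part in the differences was not tested.

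**Figure D3:**
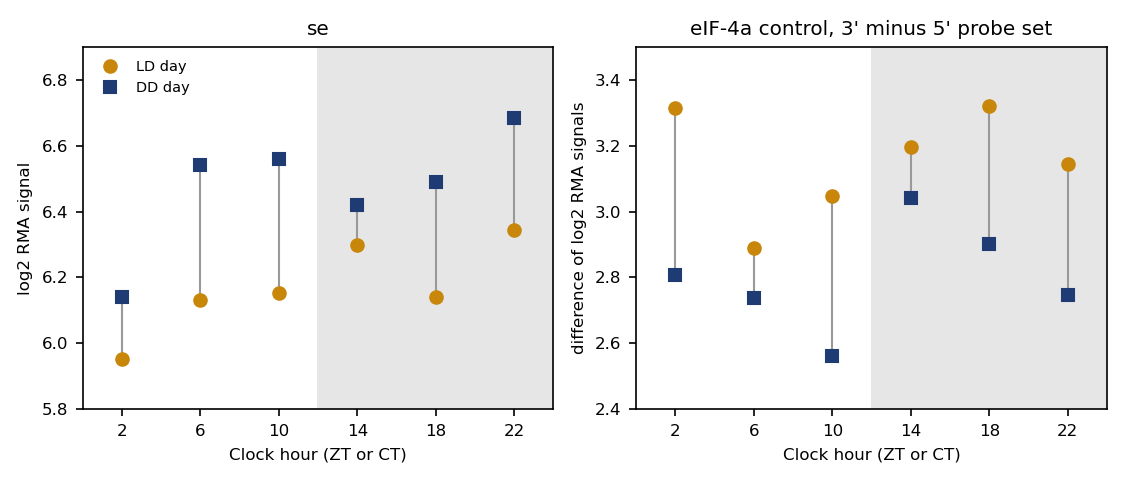
Left, log2 RMA signal of se; right, the 3′ minus 5′ difference of the eIF-4a control probe sets; both against clock hour, with LD (circles) and DD (squares) arrays of the same hour joined by a line and night hours shaded. The DD values lie above the LD values for se and below them for the control, at all 6 hours.

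Beyond the members, 39 genes of pigment synthesis, of pigment granules or of the same transporter family were measured, from 45 names sought. They cover pteridine synthesis (8 genes), ommochrome synthesis (3), biogenesis of and trafficking to pigment granules (17) and other transporters of the ABCG family, to which st and bw belong (11). With limma 0 of 39 passed in any of the 6 comparisons. Between day and night over both regimes, 1 was higher and 2 lower at an unadjusted p under 0.05, where 6.82% of all probe sets were, and the median difference was 0.00, that of all probe sets. The counts, higher and lower, were 2 and 0 within LD (6.26% of all probe sets) and 1 and 1 within DD (5.84%). For the difference of these contrasts they were 0 and 1 (5.21%). They were 5 and 2 for the LD light phase against the DD subjective day (11.5%), and 1 and 3 for the DD day against the LD day (11.1%).

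The smallest p between day and night in this list was that of Sptr, the sepiapterin reductase gene, which acts after pr on the way to tetrahydrobiopterin. It was at 6.14 ± 0.10 by day and 6.31 ± 0.11 by night (SD, n = 6 arrays each), a difference of -0.16 ± 0.06 (SE, limma, adjusted p = 0.609). The dihydropteridine reductase gene Dhpr, which recycles that cofactor, was at -0.10 ± 0.05 (adjusted p = 0.795). The Rab GTPase gene ltd, needed for pigment granules, was at -0.14 ± 0.06 (adjusted p = 0.674) and the ABCG gene CG11069 at 0.12 ± 0.05 (adjusted p = 0.683). By role, the median differences were 0.00 for pteridine synthesis, -0.03 for ommochrome synthesis, 0.00 for granule biogenesis and 0.06 for the other ABCG transporters.

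**Figure D4:**
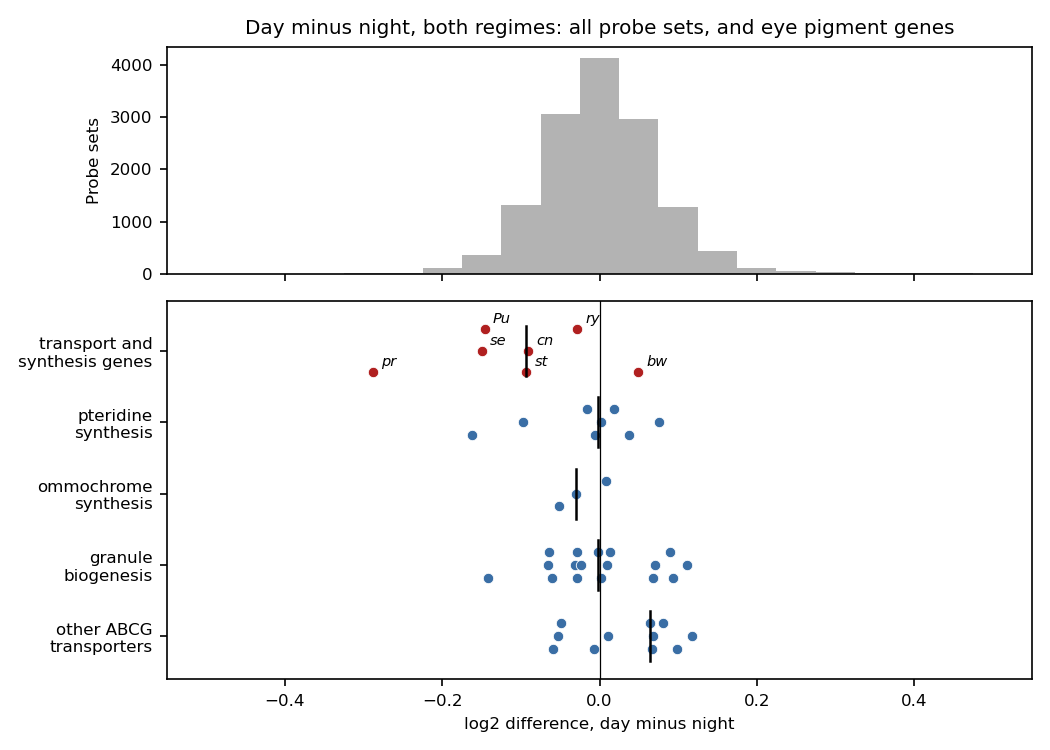
Top, number of probe sets by log2 difference between day and night over both regimes, in bins of 0.05; bottom, the same difference for the 7 members (named) and 39 further genes by role, with the median of each role as a black line. The point of pr, at -0.29, lies outside the range of the further genes, -0.16 to 0.12.

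Across the 12 arrays the members did not share one pattern. Pearson's r between pairs of members lay between -0.34 (se and bw) and 0.48 (se and st), and was 0.44 for Pu and pr. The points are the same 12 arrays for every pair, so differences between arrays enter each r. Among 6184 other probe sets with 1 gene and a level above the median, those with the pattern most like pr were CG8157 (r = 0.93), Pka-C3, a catalytic subunit gene of the cAMP-dependent protein kinase (0.90), CG10621 (0.88), the eye marker retinin (0.88) and CG7203 (0.87). Their differences between day and night ran from -0.67 (retinin) to -0.28 (CG7203), a sign that their choice by likeness to pr fixes.

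The pattern most like se was that of CG5597 (r = 0.95 over 12 arrays), followed by the tetraspanin gene Tsp42Ej (0.95), CG14109 (0.95), the muscle myosin light chain gene Mlc2 (0.94) and PsGEF (0.94). Their DD minus LD differences were 0.18 to 0.24, again with a sign that goes with their choice. The gene se lies in a row of omega-class glutathione transferase genes in the RefSeq gene table (Release 6), and its nearest measured neighbours, chosen after their values were seen, did not share its difference. They differed between the DD day and the LD day by -0.07 (GstO3), 0.03 (CG6683), -0.01 (GstO2) and -0.05 (GstO1). Of these, CG6683 (mean level 3.81) and GstO1 (3.80) were dim, below the median of all probe sets (4.12), where RMA narrows differences. The nearest measured neighbours of pr differed between day and night by 0.19 (bwa, adjusted p = 0.615), -0.09 (CG10730), -0.08 (neb) and -0.03 (fok) with limma, where pr was at -0.29. Among them CG10730 (mean level 2.07) and neb (2.57) were dim as well.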

How the data were processed

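Log2 signals per probe set were deposited. The authors made them with RMA, per the submitters' processing notes, a method that corrects background, equalizes arrays and summarizes probes. Its version is not given in the sources used. RMA brings arrays to nearly one distribution, so a shift of most transcripts cannot be seen. The most alike arrays shared 56 of 14010 values. Of these probe sets, 44 controls were left out; 12443 had 1 gene symbol, 327 several and 1196 none. The files name no genome build, so no coordinates are given; neighbouring genes come from gene order in the RefSeq table. Sequences are not used here.

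Differences were fitted with limma 3.58.1 (R 4.3.3; lmFit, eBayes with trend) to all 12 arrays, with a mean per group of 3 hours (residual degrees of freedom 8, prior 8.62), or with day means and a 24 h cosine and sine. P-values were adjusted by Benjamini-Hochberg over 13966 probe sets. The fits were tested on simulated data. All members are named; of the further genes, those past the threshold and the 4 of smallest p between day and night; and the 5 genes most alike to the 2 members of smallest p. Members, lists and tests were chosen with earlier results of these data known. Marker lists hold 6 kinds of cells. Alternatives are given in the closing section; RNA quality and fat body as covariates were chosen after seeing the data.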

Additional observations from a re-analysis of the deposited data

Results flagged for a closer look

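In 3 of 16 sets of 6 arrays (each of the 8 probe sets on each day), 1 array stood far from the others by Dixon's test, of which chance gives about 1 in 20. The share over all probe sets is not given here, so this count cannot be read as particular to these genes. The cn signal at ZT6 was 3.41, with the other LD arrays at 3.59 to 3.69. The st signal at CT10 was 4.59, with the other DD arrays at 4.27 to 4.36. The bw signal (leading probe set) at CT14 was 5.14, with the other DD arrays at 4.93 to 4.98. The other bw probe set did not share this: at CT14 it read 4.15, its lowest value of the 12 arrays. None of these arrays is among ZT2, ZT18 and CT2, where gut and male tract transcripts were high.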

How the results depend on the processing

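The count of members called between day and night over both regimes, 1 (pr), ranged from 0 to 1 when each array was left out in turn. It was 0 without ZT2, ZT18 and CT2, 0 with the eIF-4a covariate and 0 with the fat body covariate, and 1 without the intensity trend, with robust moderation, array weights, brighter probe sets alone, the gut and male tract covariate, or the mean of all probe sets of a gene. Fewer arrays or degrees of freedom enter the fits that lost it. The same holds for fits that kept it, without ZT2, without CT6 or with the gut and male tract covariate. The cause was not tested. Clock hours do not pair the arrays by design. Deviations of the arrays from group means correlated within hours at 0.27 to 0.45 at hours 2, 6 and 10. At hours 14, 18 and 22 they correlated at 0.03 to 0.11. Among the 6 arrays of the other day, that of the same hour was nearest for 6 of 12 arrays. With clock hour as a replicate block, 1 member was called between the days (se, 0.30, adjusted p = 0.0179) in place of 0; no other call of a member changed. The ry difference between day and night, -0.03, was 0.0105 with the gut and male tract covariate and -0.0803 to 0.026 without single arrays; that of pr between regimes, -0.03, was -0.11 to 0.035 without single arrays. Counts over all probe sets moved more: from 39 to between 10 and 56 for day against night, from 18 to between 1 and 54 in LD, from 9 to between 0 and 18 in DD, from 0 to at most 4 for their difference, from 26 to between 0 and 168 for the light hours, from 3 to between 0 and 118 for the days, and from 5 to between 0 and 15 for the rhythm. All members but cn were above the median level, and 12 arrays, 1 per time point, limit the precision.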

Other observations

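One probe set without a symbol in the platform annotation is listed in the RefSeq gene table as a synonym of v, the tryptophan 2,3-dioxygenase gene at the start of the ommochrome route. Of 133 probe set names that stand there as gene synonyms, 113 also have a platform annotation, and in all 113 the gene was the same. Its values are given apart from the members for that reason. It read 7.28, 7.31 and 7.26 in the LD light phase, 7.19, 7.09 and 6.95 in the LD dark phase, 7.03, 7.20 and 7.12 in the DD subjective day and 7.10, 6.86 and 7.19 in the DD subjective night. The light-phase arrays lay above the dark-phase arrays in LD, as for 5.62% of all probe sets, and the groups overlapped in DD. The log2 difference between day and night over both regimes was 0.14 ± 0.06 (SE, limma, adjusted p = 0.692), within LD 0.21 ± 0.09 (adjusted p = 0.745) and within DD 0.07 ± 0.09 (adjusted p = 0.941), and none passed.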
